A study of Homo sapiens with 8 samples.

Results

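RNA crosslinked to PTBP1 and to IGF2BP2 was examined in 6 human genes of the microtubule and centrosome machinery: CLIP1, CLASP1, MAP4, MAP1B, CEP170 and PCM1. A peak belonged to the set when the deposited peak list named 1 of these genes, which gave 2265 of the 1843422 peaks in the 4 lists and 6 of the 19767 gene names. PTBP1 replicates 1 and 2 contributed 713 and 672 of them, IGF2BP2 replicates 452 and 428. The genes were selected on measured values of these same libraries: CEP170 and CLIP1 were known to hold many PTBP1 regions in coding sequence, and the other 4 were proposed with further peak results in view. Counts and contrasts of the 6 genes are therefore descriptions, and no p is given for them.

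The cells were A172, an established human glioma line, and the labels name no treatment beyond the crosslinking. For both proteins, cells took up 500 µM 4-thiouridine, a photoreactive nucleoside, for 3 h and received 2 exposures of 400 mJ/cm2 at 365 nm. The assay was eCLIP, in which an antibody to the protein pulls down the RNA fragments that ultraviolet light has fixed to it (the IP), and a part of each lysate, 2% here, is kept as input. The membrane piece from which RNA was released ran from about 55 to 130 kDa for PTBP1 and from about 65 to 140 kDa for IGF2BP2, a difference in handling that cannot be told apart from the protein. Each protein has 2 IP and 2 input samples, 8 samples in 4 groups, and the results rest on the lists of the 4 IPs. Nothing in the labels says whether the 2 replicates came from separate cultures, so their spread may be technical, and both were from 1 cell line.

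PTBP1, the polypyrimidine tract-binding protein, binds pyrimidine-rich RNA and is best known for keeping exons out of spliced mRNA. IGF2BP2, also called IMP2, binds mature mRNAs through its KH domains, mostly in 3′ UTRs and coding sequence, and is known for roles in mRNA stability and transport. CLIP1 (CLIP-170) and CLASP1 ride on the growing plus ends of microtubules. MAP4 and MAP1B coat the microtubule lattice, MAP4 in most tissues and MAP1B chiefly in neurons and their precursors. CEP170 sits at the appendages of the mother centriole and on spindle microtubules, and PCM1 is the scaffold of centriolar satellites, the granules that carry proteins to the centrosome.

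Each peak has a log2 ratio of IP to input reads, put on 1 scale per library, and a −log10 p of that ratio. The −log10 p was recomputed on that scale where reads could be recovered and is otherwise the deposited one. A peak is called enriched below when both are at least 3. A region is a stretch in which peaks of both replicates of a protein overlap on 1 strand, and it counts as enriched when each replicate has an enriched peak there. The bar was not equal for the proteins: the constant added to the log2 was -0.30 and -0.08 for PTBP1 but 1.74 and 1.90 for IGF2BP2, so that the IGF2BP2 lists pass a log2 of 3 at a lower ratio of IP to input reads. Total reads per library are not known, and reads are given per peak where both deposited values allowed them to be recovered. Among peaks with recovered reads, the median peak held 12 and 9 IP reads in the PTBP1 lists and 4 in each IGF2BP2 list. Of markers fixed for the cell type, peaks were listed for 7 of 9 glioma genes (0 to 1056 peaks a gene) and for 5 of 6 genes of cells that the culture should lack (0 to 490, the highest being the neuronal gene RBFOX3). Peak numbers depend on gene length as well as on RNA level, so this check could not settle the cell type.

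All 6 genes carried peaks of both proteins in every library. CLASP1, the longest at 312 kb, had 254 and 228 PTBP1 peaks and 104 and 94 IGF2BP2 peaks. MAP4 (238 kb) had 171 and 173 against 136 and 146, and CLIP1 (151 kb) had 100 and 103 against 71 and 59. CEP170 (131 kb) had 79 and 64 PTBP1 peaks against 28 and 35, while MAP1B (102 kb) was the gene with more IGF2BP2 peaks, 93 and 79, than PTBP1 peaks, 72 and 67. PCM1 (107 kb) had the fewest, 37 and 37 against 20 and 15. Per 10 kb of gene, PTBP1 peaks ran from 3.46 in both replicates (PCM1) to 8.15 and 7.32 (CLASP1), and IGF2BP2 peaks from 1.87 and 1.40 (PCM1) to 9.11 and 7.74 (MAP1B). The PTBP1 values of CLIP1, 6.60 and 6.80, lay within those of MAP1B, 7.05 and 6.56, so these neighbours did not differ beyond the replicates.

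**Figure D1:**
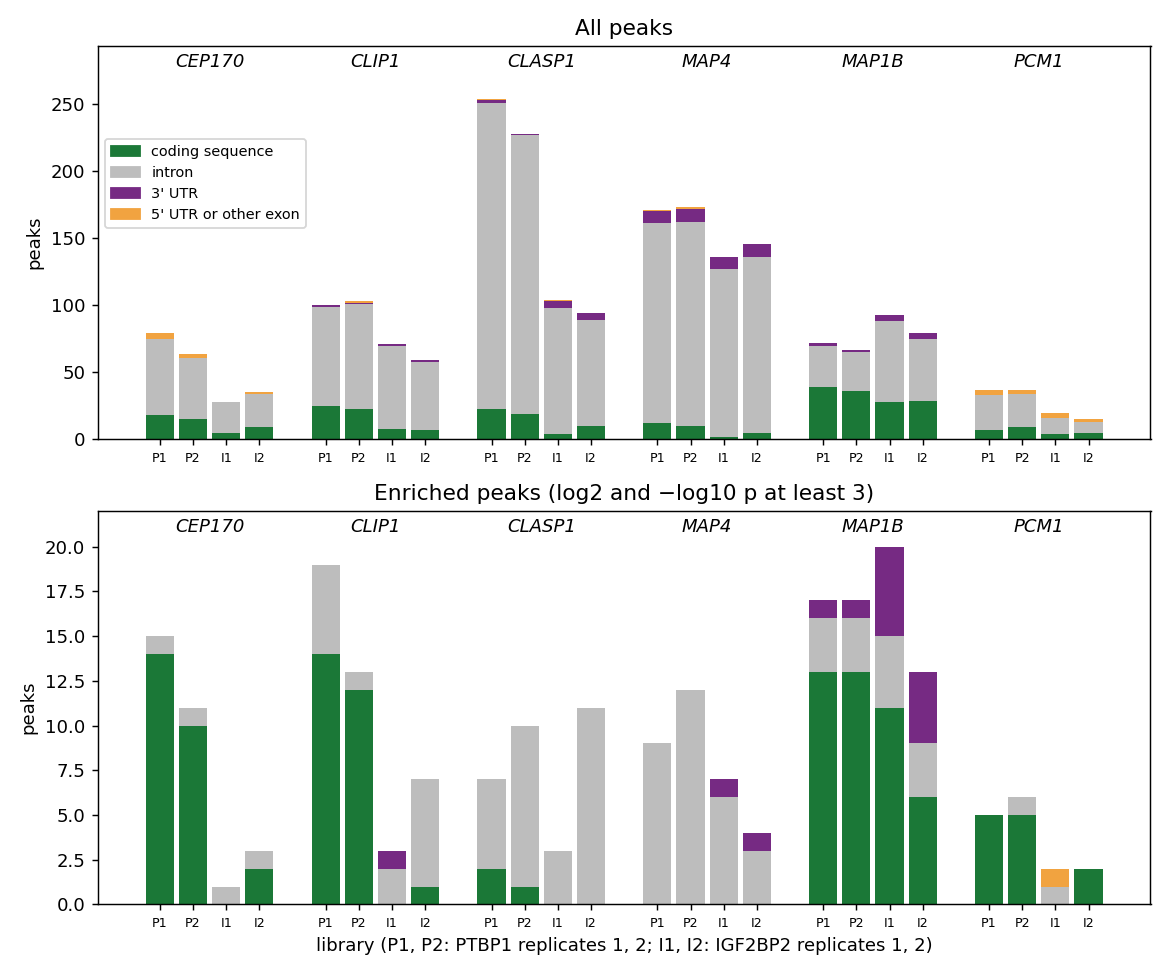
Peaks of each gene in the 4 IP libraries (P1, P2: PTBP1 replicates; I1, I2: IGF2BP2 replicates), stacked by transcript region as the lists annotate it; upper panel all peaks, lower panel enriched peaks, both in numbers of peaks. Introns hold most peaks of CLASP1 and MAP4, whereas coding sequence holds 14 and 10 of the enriched PTBP1 peaks of CEP170 and 14 and 12 of those of CLIP1.

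Peaks of both proteins were mostly intronic, whereas the enriched PTBP1 peaks lay mostly in coding sequence. Over the 6 genes, introns held 79.7% ± 0.58 (SD, n = 2) of all PTBP1 peaks and 35.5% ± 5.08 of the enriched ones. Coding sequence held 17.0% ± 0.51 of all PTBP1 peaks and 63.0% ± 5.12 of the enriched ones, against 13.4% ± 0.20 and 26.5% ± 0.28 over all genes. CEP170 and CLIP1 supplied 14 and 14 of the 48 enriched coding peaks in replicate 1, and 10 and 12 of the 41 in replicate 2. They were picked with their many PTBP1 coding regions known, so nothing is read from the excess over all genes. For IGF2BP2, introns held 81.3% ± 2.65 of all peaks of the set and remained the largest class among the enriched ones, with 53.6% ± 9.04, against 70.3% ± 0.34 of the enriched peaks of all genes. Coding sequence held 29.0% ± 2.16 of the enriched IGF2BP2 peaks of the set and 5.53% ± 0.28 of those of all genes, and 3′ UTRs held 16.0% ± 4.91 and 15.1% ± 0.11. MAP1B supplied 11 of the 11 enriched IGF2BP2 coding peaks in replicate 1 and 6 of the 11 in replicate 2. Counting instead every peak with at least 10 recovered IP reads, coding sequence held 32.8% ± 2.36 of the PTBP1 peaks of the set. For IGF2BP2 it held 45.7% ± 4.75, of only 52 and 51 peaks, so the order of the proteins turned. That turn rested on MAP1B, which supplied 21 of the 22 and 24 of the 25 such IGF2BP2 coding peaks. With 2 libraries a protein an exact permutation test cannot pass 0.05, so none was run.

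Of the PTBP1 peaks of the set, 72 and 69 were enriched, 10.1% and 10.3%, where 2.94% and 2.84% of all peaks of these lists were. Of the IGF2BP2 peaks, 36 and 40 were enriched, 7.96% and 9.35%, beside 9.19% and 9.36% of the whole lists. Since the genes were picked on PTBP1 enrichment, nothing is read from the first pair of shares. A peak of the other replicate overlapped 65.6% and 68.0% of the PTBP1 peaks of the set, against 55.6% and 61.5% of all PTBP1 peaks, and 45.4% and 49.8% of the IGF2BP2 peaks, against 48.2% and 51.6%.

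Joined over replicates, the 6 genes held 405 PTBP1 regions, of which 40 were enriched (9.88%), and 185 IGF2BP2 regions, of which 12 were (6.49%). Over all genes, 2.33% of 303982 PTBP1 regions and 5.95% of 159702 IGF2BP2 regions were enriched. The IGF2BP2 share of the members was near this background, and nothing is read from the PTBP1 share, on which they were picked. Counted by gene, the background is 17.7% of genes with a PTBP1 region holding an enriched one (2775 of 15658), and 27.9% for IGF2BP2 (3839 of 13778). Enriched PTBP1 regions occurred in all 6 genes, and those of IGF2BP2 in 4, CEP170 and PCM1 holding 0. By transcript region, 31 of 73 PTBP1 coding-sequence regions were enriched, in 5 of the 6 genes (background 4.61% of regions and 11.8% of genes), and 9 of 317 intronic ones, in 4 genes (background 1.89% of regions and 13.7% of genes). The coding regions were 10 in CEP170, 10 in CLIP1, 7 in MAP1B, 3 in PCM1, 1 in CLASP1 and 0 in MAP4. For IGF2BP2 all 4 enriched coding regions, of 34 in the set (background 3.38% of regions and 7.18% of genes), and all 4 enriched 3′ UTR regions, of 12 (background 18.6% of regions and 32.8% of genes), lay in MAP1B, and CLASP1, CLIP1, MAP1B and MAP4 had 1 intronic region each, 4 of 137 (background 4.87% of regions and 21.3% of genes).

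Of all genes, 8 held more enriched PTBP1 coding regions than CEP170 and CLIP1, and no gene beyond these members held as many. MAP1B followed with 17 genes above it, and PCM1 with 121. CEP170 and CLIP1 were picked with this count known, so nothing is read from their rank. The 10 regions of CEP170 include 4 on the strand opposite to the gene, and 2 were left without mirrored peaks. Input reads were few under most of the members' enriched PTBP1 coding regions. In 15 of the 31 both replicates had 1 or 2 input reads, and in 10 both had 3 or more. Counting only peaks with at least 3 input reads left 12 of the 40 PTBP1 regions, 11 of them in coding sequence, and 7 of the 12 IGF2BP2 regions.

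**Figure D2:**
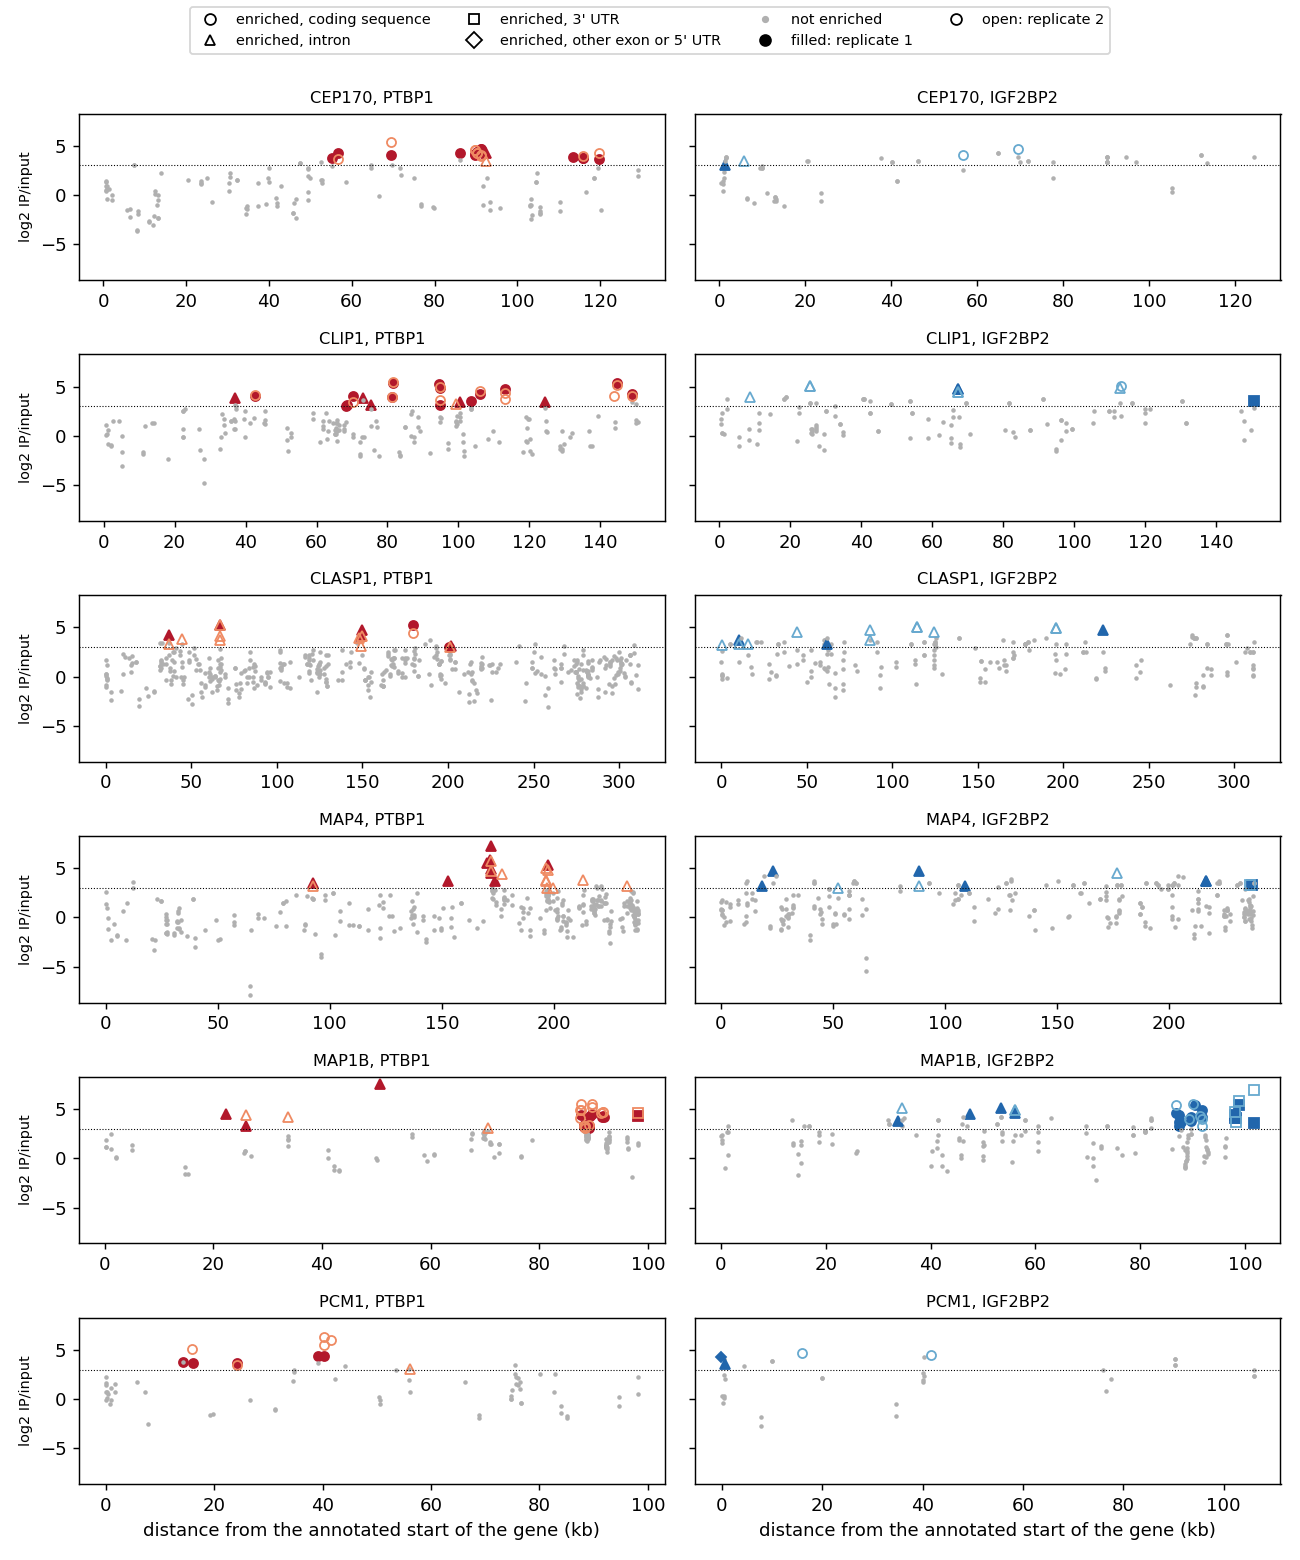
Log2 of IP over input reads of every peak (1 scale per library) by distance in kb from the annotated start of its gene, PTBP1 left and IGF2BP2 right; coloured symbols are enriched peaks, filled for replicate 1 and open for replicate 2, and the dotted line marks a log2 of 3. Enriched PTBP1 peaks of CLIP1 and CEP170 are spread over many coding sites, and those of both proteins in MAP1B crowd near its 3′ end.

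CLIP1 lies on chromosome 12 (hg38, 122271469 to 122422956, minus strand). Its protein links the plus ends of growing microtubules to their cargo and to the cell cortex. PTBP1 peaks in its coding sequence stood out from those in its introns: the median log2 was 3.16 and 3.43 in coding sequence and 0.59 and 0.51 in introns, a gap of 2.57 and 2.92. Over the 6282 and 5861 genes that could be compared, that gap had a median of 0.21 and 0.12. CLIP1 was picked with its many PTBP1 coding regions known, so nothing is read from the excess of its gap over all genes. The IGF2BP2 gaps of CLIP1 were 0.05 and -1.06.

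The 10 enriched coding regions of CLIP1 spanned 106 kb of the gene and all lay on its own strand. The one at 122341243-122341411 had 50 IP reads over 1 input read in replicate 1 and 48 over 1 in replicate 2 (log2 5.34 and 5.51). At 122278155-122278204 the reads were 52 over 1 and 39 over 1 (log2 5.40 and 5.21). Most reads fell at 122309764-122309882, with 101 over 3 and 85 over 4. That both replicates were high at these sites follows from the definition of an enriched region. Of the 10 regions, 8 had 1 or 2 input reads in at least 1 replicate, and with at least 3 input reads 2 regions were left. An IGF2BP2 peak overlapped 4 of the 10, and 1 of those overlaps held an enriched IGF2BP2 peak.

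IGF2BP2 had 8 and 7 coding peaks in CLIP1, of which 0 and 1 were enriched, with at most 5 and 9 IP reads a peak. Its 1 enriched region was intronic, at 122355577-122355597, with 8 IP reads over 1 and 6 over 1 (log2 4.74 and 4.49). No PTBP1 peak overlapped it.

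CLASP1, on chromosome 2 (121337776 to 121649462, minus strand), encodes a protein that stabilises microtubule plus ends at the cell edge and at kinetochores. Unlike CLIP1, it held its PTBP1 peaks at near-equal levels in coding sequence and introns: the median log2 was 1.16 and 1.19 in coding sequence and 0.55 and 0.92 in introns. Of 23 and 19 PTBP1 coding peaks, 2 and 1 were enriched. The 1 coding region enriched in both replicates, at 121469808-121469922, had 46 over 1 and 22 over 1 reads (log2 5.22 and 4.38).

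The strongest CLASP1 region was intronic, at 121582418-121582453, with 47 over 1 and 41 over 1 reads (log2 5.25 and 5.28). None of the 5 enriched PTBP1 regions of CLASP1 had 3 or more input reads in both replicates. In 4 of the 5 both replicates had 1 or 2 input reads. IGF2BP2 had 4 and 10 coding peaks, none enriched, and 1 enriched intronic region at 121639226-121639270 (12 over 3 and 11 over 4 reads, log2 3.74 and 3.36). PTBP1 peaks overlapped it in both replicates without being enriched.

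MAP4, on chromosome 3 (47850695 to 48088848, minus strand), is the common lattice-binding protein of non-neuronal cells. Its coding sequence carried 12 and 10 PTBP1 peaks with many reads, up to 202 and 162 IP reads, but none was enriched: the median log2 was 1.15 and 1.21. Its 9 and 12 enriched PTBP1 peaks were all intronic. The region with the highest log2 of the whole set lay there, at 47916782-47917167, with 184 IP reads over 1 input read in replicate 1 and 109 over 2 in replicate 2 (log2 7.22 and 5.69). A second, at 47891266-47891330, had 49 over 1 and 29 over 1 (log2 5.31 and 4.78). IGF2BP2 peaks overlapped the first in both replicates, none of them enriched. The deposited scale, which differs between chromosomes, would count 9 enriched PTBP1 regions in MAP4 in place of 3.

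IGF2BP2 left 9 and 10 peaks in the MAP4 3′ UTR, of which 1 in each replicate was enriched, but not at a shared site. The most IP reads there were 54 in each replicate. PTBP1 had 9 and 10 peaks in the same 3′ UTR, with a median log2 of -0.21 and -0.27 and none enriched. Its 1 enriched IGF2BP2 region was intronic, at 48000184-48000217 (23 over 3 and 15 over 6 reads, log2 4.68 and 3.23).

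MAP4 was also the only matched member with PTBP1 peaks of both replicates inside the first 50 nucleotides of its annotated transcript, so that their sequence could be read from the RefSeq promoter table (GRCh38.p14, 35116 windows; 5 of the 6 genes matched, all but PCM1). The peaks were listed as 5′ UTR and had 65 over 20 reads in replicate 1 (chr3:48088773-48088828) and 38 over 6 in replicate 2 (chr3:48088779-48088818), with a log2 of 1.40 and 2.59, below the bar. The stretch of the first peak nearest to the start site, 5′ to 3′ on the RNA strand with TCTT in capitals, is shown because it is the only sequence of a listed PTBP1 peak of the set that could be read and that both replicates cover in part: its last 20 bases lie in the peaks of both, and the bases before them, TCTT included, in replicate 1 alone.

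MAP4 chr3:48088799-48088828: TCTTcccggcgctctcctggctcccttctg

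It holds 24 pyrimidines in 30 bases (80.0%), where the median over all promoter windows at the same distance from the start is 46.7%. TCTT and CTTT, short pyrimidine motifs that PTBP1 is known to bind, were searched on the RNA strand only. The stretch has 1 TCTT, outside the part shared by the replicates, and no CTTT, and 15.3% of all windows hold either at these positions. The match is a description of the letters and not evidence of a contact.

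MAP1B, on chromosome 5 (72107475 to 72209565, plus strand), encodes a large neuronal microtubule-binding protein that is cleaved into a heavy and a light chain. It was the only member with regions of both proteins in the mature mRNA that were enriched in both replicates. Its peaks had the highest median of recovered IP reads of the 6 genes, 223 and 156 for PTBP1 and 7 and 8 for IGF2BP2. The highest single value in PTBP1 replicate 1 was 6171 in a CLASP1 intron, where MAP1B reached 1275. MAP1B coding sequence carried 39 and 36 PTBP1 peaks, with a median of 405 and 247 IP reads. It also carried 28 and 29 IGF2BP2 peaks, with a median of 23 and 22. Of these, 13 and 13 PTBP1 peaks and 11 and 6 IGF2BP2 peaks were enriched.

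The enriched coding regions of both proteins lay within about 5 kb, from 72194338 to 72199355. For PTBP1, the region at 72197103-72197170 had 312 over 11 and 236 over 5 reads (log2 4.52 and 5.48), and that at 72195141-72195286 had 639 over 24 and 425 over 9 (log2 4.43 and 5.48). None of its 7 coding regions had fewer than 3 input reads in a replicate where reads were recovered, in contrast to CLIP1 and CEP170. An IGF2BP2 peak overlapped all 7, in both replicates or 1, where 35.9% of all enriched PTBP1 coding regions had such an overlap. Of all PTBP1 coding peaks of MAP1B, enriched or not, 89.7% and 88.9% overlapped an IGF2BP2 peak, so the overlap was not particular to the enriched regions.

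Of the 7 enriched PTBP1 coding regions, 4 held an enriched IGF2BP2 peak. At 72198901-72198976 IGF2BP2 had 59 over 10 and 57 over 11 reads (log2 4.30 and 4.28), within the PTBP1 region 72198881-72198997 with 502 over 23 and 390 over 15 (log2 4.15 and 4.62). At 72199184-72199206 IGF2BP2 had 17 over 3 and 13 over 5 reads, within the PTBP1 region 72199183-72199255 with 268 over 11 and 139 over 5. The coding region at 72194338-72194362 was IGF2BP2's alone, with 15 over 2 and 11 over 1 reads and no PTBP1 peak over it. RNA abundance was not measured apart from the input, so reads cannot be compared between proteins as binding strength.

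**Figure D3:**
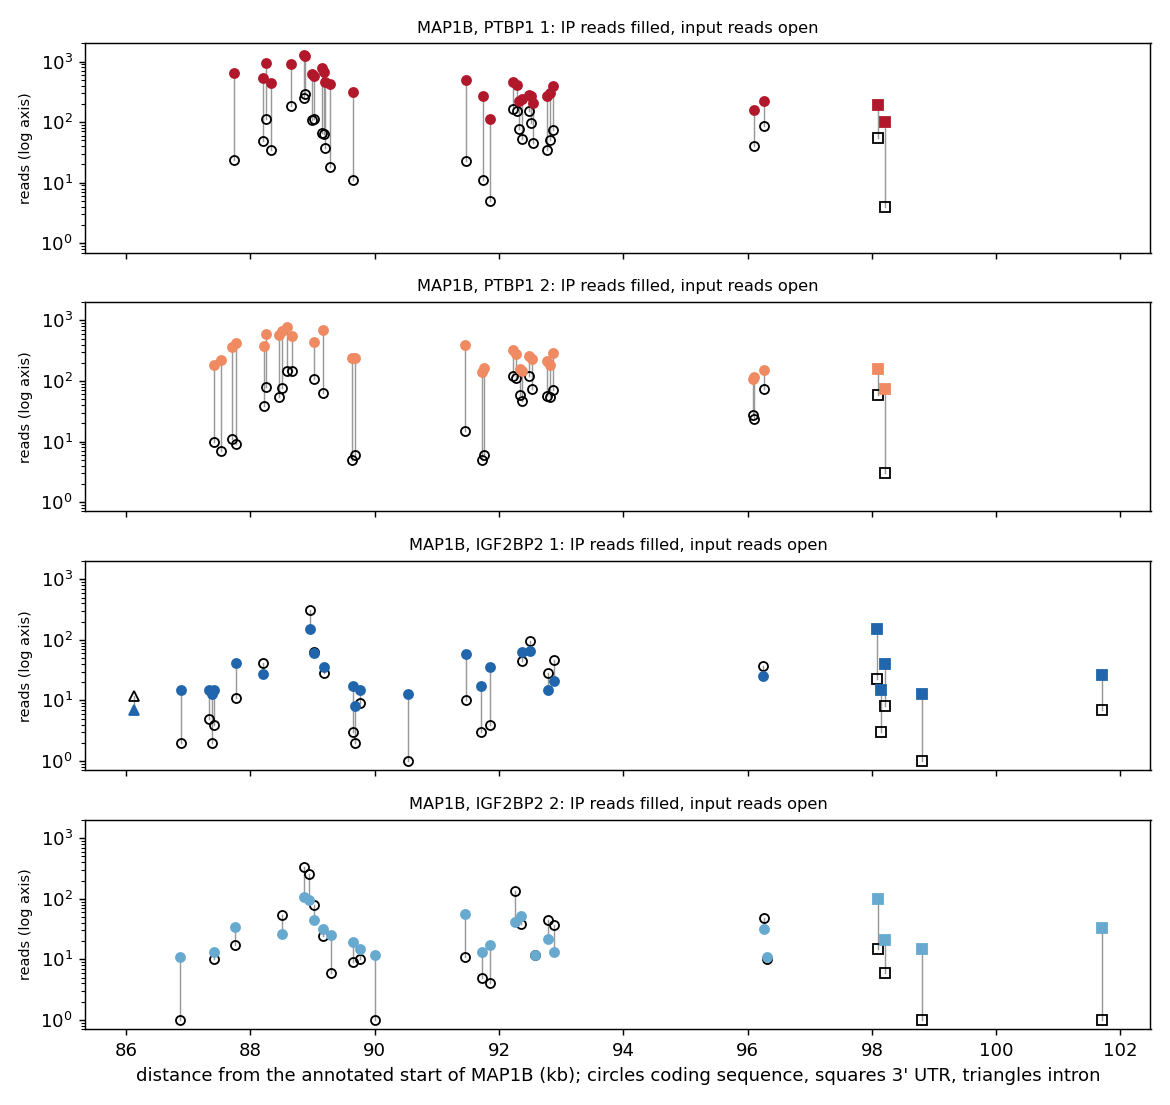
IP reads (filled) and input reads (open) of each MAP1B peak whose reads were recovered, on a log axis, by distance in kb from the annotated start, for the last part of the gene in the 4 libraries; circles are coding sequence, squares the 3′ UTR and triangles introns. Within IGF2BP2, input lies above IP at several coding peaks and IP above input at all 5 and 4 of its 3′ UTR peaks. IP reads exceed input reads at every PTBP1 peak shown, but the recovery of reads fixed this in advance. Reads were recovered only where the deposited log2 was not negative. On chromosome 5 its constant was -0.59 and -0.34 for PTBP1 and 1.52 and 1.69 for IGF2BP2. A PTBP1 peak with input above IP could therefore not be shown, so the proteins cannot be compared on this.

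In the MAP1B 3′ UTR, all 5 and 4 IGF2BP2 peaks were enriched, and they formed 4 regions found in both replicates. The median log2 was 4.06 and 5.23 in the 3′ UTR against 1.95 and 2.04 in coding sequence, a gap of 2.11 and 3.19. Most reads lay at 72205516-72205640, 150 over 23 and 101 over 15 (log2 4.44 and 4.66). The region at 72206266-72206301 had 13 over 1 and 15 over 1 (log2 5.44 and 5.81), and that at 72209157-72209196 had 26 over 7 and 33 over 1 (log2 3.63 and 6.95). The fourth, at 72205663-72205710, had 40 over 8 and 21 over 6. PTBP1 had 2 peaks in the same 3′ UTR in each replicate, 1 of them enriched, and they overlapped the first and the fourth of these regions. The enriched PTBP1 peaks, with 100 over 4 and 74 over 3 reads, were 3 nt long in each replicate and did not overlap each other. In its introns MAP1B had 1 further IGF2BP2 region, at 72163629-72163659, with 15 over 2 and 8 over 1 reads (log2 4.65 and 4.90).

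Peaks of both proteins also lay just upstream of the annotated MAP1B start on its strand; the lists name no gene for them, so they are not among the 2265. PTBP1 had 140 over 40 and 105 over 41 reads there, and none was enriched. The overlap of the PTBP1 peaks is poor in pyrimidines, in contrast to the MAP4 stretch, and the peak of replicate 1 is shown for that reason (RNA strand, 5′ to 3′; it has no TCTT and no CTTT to capitalise, and 13.3% of all windows have either at this distance).

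MAP1B chr5:72107388-72107411: gggggaggcggcgcgcggcgccag

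It holds 7 pyrimidines in 24 bases (29.2%). The IGF2BP2 peaks at the same place had 28 over 48 and 25 over 51 reads, which is a log2 of 0.96 and 0.88 on the scale of these lists. Those adjoining it upstream had 36 over 29 and 30 over 26 reads (log2 2.05 and 2.11), and none of the 4 was enriched.

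CEP170 lies on chromosome 1 (243124428 to 243255785, minus strand). Its protein marks the mature centriole and binds microtubules. It showed the widest gap of the 6 genes between coding sequence and introns for PTBP1: a median log2 of 3.96 and 4.01 in coding sequence and -0.02 and -0.52 in introns, a gap of 3.98 and 4.53. Those coding medians cover peaks on both strands, 10 and 6 of them mirrored on the opposite strand. CEP170 was picked with its many PTBP1 coding regions known, so the gap is a description. Of 18 and 15 PTBP1 coding peaks, 14 and 10 were enriched. Of 5 and 9 IGF2BP2 coding peaks, 0 and 2 were, and no IGF2BP2 region was enriched in both replicates.

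Of its 10 enriched PTBP1 coding regions, 4 lay on the plus strand, opposite to the gene. On the minus strand, the region at 243199062-243199194 had 96 over 4 and 80 over 6 reads (log2 4.28 and 3.66), and that at 243186287-243186421 had 41 over 2 and 44 over 1 (log2 4.05 and 5.38). The region at 243139937-243140052 had 49 over 3 and 33 over 2 (log2 3.73 and 3.97). These 3 had no enriched region of both replicates facing them, and neither had the plus-strand region at 243136183-243136232 (32 over 2 and 21 over 1). In replicate 1, however, an enriched plus-strand peak at 243139937-243140037 (50 over 3) faced the region at 243139937-243140052. A minus-strand peak of replicate 1 that was not enriched (17 over 2) overlapped the plus-strand region at 243136183-243136232.

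The other 6 regions came as 3 pairs on both strands with nearly the same reads. The pair with the highest log2, at 243165443-243165566 on the plus strand and 243165497-243165599 on the minus strand, had 26 over 1 reads on each strand in replicate 1 and 20 over 1 on each in replicate 2 (log2 4.40 and 4.25). A second pair, at 243164639-243164697 and 243164648-243164713, had 32 over 1 on each strand in replicate 1, and 17 over 1 and 18 over 1 in replicate 2. The remaining pair, at 243165950-243166104 and 243165996-243166117, had 67 over 3 and 63 over 3 in replicate 1 and 51 over 2 on each strand in replicate 2. Of all 10 plus-strand peaks of CEP170 with reads known on both strands, 6 had the same IP and input reads as the minus-strand peak over them.

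**Figure D4:**
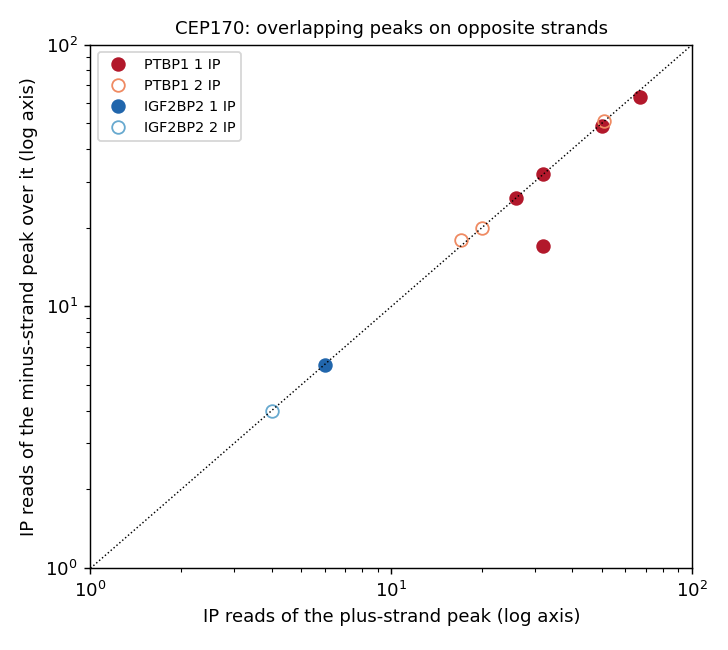
IP reads of each plus-strand CEP170 peak (x) against those of the minus-strand peak that overlaps it (y), both on log axes, 1 point per pair and library; the dotted line marks equal reads. All points but 1 lie on or next to the line; the exception has 32 plus-strand and 17 minus-strand reads.

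Thus 6 of the 10 CEP170 coding regions faced an enriched region on the opposite strand, beside 7.05% of all enriched PTBP1 coding regions. Without peaks mirrored on the opposite strand 2 of the 10 remained, on the strand of the gene alone 6, and with at least 3 input reads 1. Listed peaks opposite to the gene numbered 15 of 206 in CEP170, 13 of 333 in CLIP1, 7 of 680 in CLASP1, 1 of 626 in MAP4 and 0 in MAP1B and PCM1, and those of CLIP1 and CLASP1 were all in introns and none was enriched. A transcribed pseudogene, CEP170P1 on chromosome 4, had its own 13, 9, 2 and 2 peaks in the 4 lists, 3 of them enriched, all in PTBP1 replicate 1. How reads that match both copies were placed is not given in the sources used here, so the CEP170 reads are uncertain to that extent, and the part of strand mirroring or of the pseudogene in the CEP170 counts was not tested.

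PCM1, on chromosome 8 (17922988 to 18029948, plus strand), builds the satellites around the centrosome. It had few peaks but a wide gap between transcript regions for PTBP1: the median log2 was 3.70 and 3.73 in coding sequence and 0.70 and 0.05 in introns. Of 7 and 9 PTBP1 coding peaks, 5 and 5 were enriched. The 3 coding regions were at 17963255-17963292 (26 over 1 and 46 over 1 reads, log2 4.40 and 5.45), 17938917-17939015 (128 over 8 and 106 over 3, log2 3.70 and 5.07) and 17947192-17947294 (32 over 2 and 24 over 2). IGF2BP2 had 4 and 5 coding peaks with at most 4 and 7 IP reads, of which 0 and 2 were enriched, and no enriched region.

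The coding-to-intron gap for PTBP1 thus ordered the genes, from the widest, as CEP170 (3.98 and 4.53), PCM1 (3.00 and 3.68), CLIP1 (2.57 and 2.92), MAP1B (0.78 and 1.36), then CLASP1 (0.61 and 0.26) and MAP4 (0.36 and 0.55), whose replicate values overlap. CEP170 and CLIP1 were picked with their PTBP1 coding regions known, so nothing is read from this order. The gap for IGF2BP2 was below 0 in both replicates in CLASP1, MAP4 and MAP1B, with a median over all genes of -1.0 and -1.08. In CEP170 it was 0.58 and 1.00, and in PCM1 and CLIP1 the replicates had opposite signs.

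Peak density, the share of a list's peaks that fall in a gene, was fitted with limma over 15145 genes with at least 10 peaks in the 4 lists, as a log2 with a pseudocount of 0.5. At an adjusted p under 0.05, 1922 genes were higher in PTBP1 (12.7%) and 1860 in IGF2BP2 (12.3%). Of the 6 genes, CLASP1 was called higher in PTBP1, MAP4 and MAP1B higher in IGF2BP2, and CEP170, CLIP1 and PCM1 were not called. CLASP1 held 4.23 and 4.23 of every 10000 PTBP1 peaks and 2.87 and 2.75 of every 10000 IGF2BP2 peaks, a log2 difference (PTBP1 minus IGF2BP2) of 0.59 (SE 0.09). For MAP1B the values were 1.20 and 1.24 against 2.56 and 2.31, a difference of -0.99 (SE 0.12), and for MAP4 2.85 and 3.21 against 3.75 and 4.28, a difference of -0.41 (SE 0.11). The libraries of the proteins did not overlap in these 3 genes, but neither did they in CEP170 and PCM1, which were not called. How many of all genes lack such an overlap was not counted, so nothing is read from it. The MAP4 call was lost under median-of-ratios scaling, without the filter on few peaks and without PTBP1 replicate 1, each with MAP4 still lower in PTBP1.

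CEP170 differed by 0.48 (SE 0.18), PCM1 by 0.38 (SE 0.21) and CLIP1 by -0.05 (SE 0.13). The median was 0.17 over the 6 genes and -0.01 over all genes. Because the IGF2BP2 lists are shorter, a gene with equal numbers of peaks in all lists would have a difference of -0.69. Directions depended on which peaks were counted. With only enriched peaks all 6 genes were higher in PTBP1, MAP1B by 1.06 and MAP4 by 1.90, where the median of all genes was 0.05. The genes were picked with PTBP1 enrichment known, so nothing is read from that direction. With peaks of at least 10 IP reads MAP1B was at -1.52 and MAP4 at 0.83, beside a median of 0.64.

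**Figure D5:**
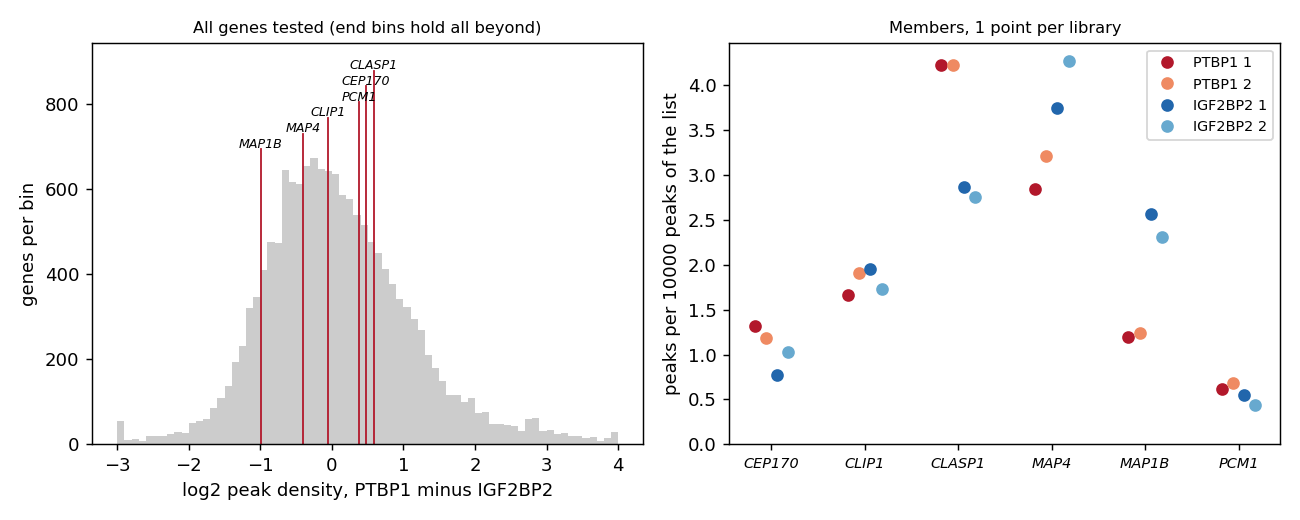
Left, histogram of the log2 difference in peak density (PTBP1 minus IGF2BP2) over the 15145 genes tested, with a line for each of the 6 genes; right, their peaks per 10000 peaks of the list in each library, 1 point per library. The 6 genes lie between -0.99 (MAP1B) and 0.59 (CLASP1), where all genes run from -4.78 to 4.96, and in CLIP1 the libraries of the proteins overlap.

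The genes with the most similar peak pattern were sought by Euclidean distance over 12 values, the log2 peak density in coding sequence, introns and 3′ UTRs of the 4 libraries, among 10749 genes. Nearest to CEP170 were SIK3 (distance 0.96), CDK13 (0.98) and USP42 (1.01), and nearest to CLIP1 were CAMSAP1 (1.57), DLC1 (1.69) and SMARCC1 (1.83). CLASP1 had TULP4 (1.31), ACACA (1.34) and SRGAP2 (1.76). For MAP4 they were FAM102A (1.42), LPCAT1 (1.44) and TIMP2 (1.54), for MAP1B ARHGEF2 (1.56), HNRNPUL1 (1.70) and SEC16A (1.74), and for PCM1 MAGED1 (0.69), RNF217 (0.95) and ABCB10 (0.96). The median distance of all genes to a member ran from 6.86 (PCM1) to 11.3 (MAP4). CAMSAP1, itself a microtubule minus-end protein, had 116 and 110 PTBP1 peaks and 77 and 80 IGF2BP2 peaks, close in number to CLIP1. It held 0 enriched PTBP1 regions and 2 of IGF2BP2, where CLIP1 held 10 and 1. The likeness is thus one of peak numbers and not of enriched regions.

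Among other microtubule-associated genes, 52 of 55 could be tested for density: 9 calls went to PTBP1, 8 to IGF2BP2 and 35 genes were not called, with a median difference of -0.10. Among the called genes, the largest differences towards PTBP1 were in EML6 (2.10, SE 0.35), FIGN (1.64, SE 0.34), MAP6 (1.37, SE 0.36), NAV3 (1.36, SE 0.25) and MAPT, which encodes tau (0.92, SE 0.21). Towards IGF2BP2 the largest among the called genes were in TPX2, a spindle assembly factor (-1.23, SE 0.26), GAS2L1 (-0.87, SE 0.25), MAP1A, the close relative of MAP1B (-0.77, SE 0.18), MAP7D1 (-0.76, SE 0.17) and MAP1S (-0.75, SE 0.21). Some genes that were not called had larger fitted differences with larger errors, such as MAP2 (1.94, SE 0.76) and MAP7D2 (-2.70, SE 0.90). Enriched PTBP1 coding regions occurred in 10 of the 55 genes, 29 in all, and 1 gene, DCLK2, had an enriched IGF2BP2 coding region.

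On that list most enriched PTBP1 regions were held by NAV1 (15, none coding), DCLK2 (8, 1 coding), CKAP5 (6, 5 coding), CAMSAP2 (6, 5 coding), TPX2 (6, all coding) and NAV2 (6, 1 coding). TPX2 thus had more of its list share in IGF2BP2 and yet 6 enriched coding regions of PTBP1 and none of IGF2BP2. MAP1A had 4 enriched PTBP1 regions, all coding, and 4 enriched IGF2BP2 regions, none coding.

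Of 81 genes of centrosomes, centrioles and satellites, 75 could be tested: PTBP1 was higher in 19, IGF2BP2 in 7, and 49 were not called, with a median difference of 0.37. Of the called genes, CEP70 (2.05, SE 0.31), ALMS1 (1.78, SE 0.19), POC1B (1.39, SE 0.40), CEP162 (1.34, SE 0.35) and CEP44 (1.33, SE 0.36) differed most towards PTBP1. HAUS3 (-2.04, SE 0.47), TACC3 (-1.06, SE 0.19), CEP170B (-0.97, SE 0.14), TUBGCP6 (-0.83, SE 0.19) and CEP131 (-0.81, SE 0.19) differed most towards IGF2BP2. Larger differences that did not pass the test included CEP41 (1.80, SE 0.55) and CEP126 (-1.83, SE 0.56). CEP170B, the paralogue of CEP170, had 75 and 84 PTBP1 peaks and 96 and 97 IGF2BP2 peaks and no enriched PTBP1 region, where CEP170 had 11.

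Enriched PTBP1 coding regions occurred in 13 of the 81 genes, 24 in all, and 1 gene, CEP97, had an enriched IGF2BP2 coding region. CDK5RAP2, which anchors microtubule nucleation at the centrosome, had 5, all its enriched PTBP1 regions, and CEP350 had 4 of 5. SDCCAG8 and ALMS1 had 5 enriched PTBP1 regions each, with 0 and 1 in coding sequence, and CENPJ had 4, with 3 there. CEP72 held the most enriched IGF2BP2 regions, 12, none coding. The share of genes with an enriched PTBP1 coding region in both lists can be set beside the 11.8% of genes with a PTBP1 coding region given above, which has a smaller denominator.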

How the data were processed

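Peak lists of 4 eCLIP IP libraries from A172 cells were used, PTBP1 and IGF2BP2 with 2 each, grouped by their labels; the input libraries were not used here other than through the ratios. Per the submitters' processing notes, reads were aligned with HISAT2 to hg38. Peak caller and annotation: not given in the sources used here. Per the file headers, each line gives position, strand, gene, transcript region and an overlap length, and the lists were made per library, not pooled. The authors deposited a −log10 p per peak, which stops at 400. A deposited column headed as a count holds log2 values: they equal the log2 of IP to input reads plus a constant per chromosome, set by the commonest value being 3 IP reads to 1 input read. No source states that the divisor is the input; this is read off the values.

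Reads were recovered from both columns (tolerance 1% on the −log10 p) for 98.8%, 98.5%, 99.6% and 99.6% of eligible peaks of PTBP1 replicates 1 and 2 and IGF2BP2 replicates 1 and 2, on 24 of 24 chromosomes each. Eligible peaks had a deposited log2 that was not negative and a positive −log10 p below 400. Of all peaks, 440867 of 600615, 410423 of 538802, 318414 of 362700 and 302133 of 341305 had recovered reads, in the same order. Results by reads thus rest on unequal parts of the lists. The log2 was put on the median constant of the library. Where reads were recovered, the −log10 p was recomputed on that constant by a binomial test, approximated for the largest read numbers. At most 55 repeated lines a list were removed. Regions need an overlap of at least 1 nt. A peak is mirrored when an opposite-strand peak of its list overlaps at least 50% of the shorter. Density was fitted with limma 3.58.1 (trend, R 4.3.3), Benjamini-Hochberg adjusted over all genes; the code was tested on simulated data. Tables used pandas 2.3.3 and numpy 2.4.6. Reads are PCR products, and errors cover counting and the spread of 2 libraries only.

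The members and gene lists were chosen with earlier results of these data known. Named besides the members are the 3 genes nearest to each, up to 2 top regions of each member and protein plus regions described by position, and from each list up to 5 called genes in each direction and up to 5 with most enriched regions (ties kept); MAP2, MAP7D2, CEP41 and CEP126, which were not called, were named after their values were seen. Replicate numbers did not pair the libraries. Alternatives varied thresholds, scale, overlap, pseudocount, filters, mirrored peaks, the replicate block and each library; those on input reads, IP reads, enriched peaks and gene strand were chosen after seeing the data. Sequences come from the RefSeq promoter table, as no genome was given for the other regions.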

Additional observations from a re-analysis of the deposited data

How the results depend on the processing

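Counts of enriched regions depend on the threshold and on input reads. The members held more enriched coding regions of PTBP1 than of IGF2BP2 under every alternative run for these counts. CEP170 and CLIP1 were picked with their many PTBP1 coding regions known, so nothing is read from that direction. With log2 and −log10 p of at least 4, the members held 22 PTBP1 and 5 IGF2BP2 enriched regions, of which 18 and 2 were coding; with at least 2 they held 68 and 31, with 14 coding for IGF2BP2. With at least 3 input reads 12 and 7 regions were left, and 11 coding PTBP1 regions. With log2 and p as deposited, the members held 52 PTBP1 and 12 IGF2BP2 enriched regions.

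Coding sequence held 17.0% of all PTBP1 peaks of the members, 32.8% of those with at least 10 IP reads, 68.8% of enriched peaks at a threshold of 4 and 51.5% at 2. Introns held 79.7%, 61.3%, 28.8% and 46.9% of them in that order, and 3′ UTRs 2.02%, 3.40%, 2.50% and 0.79%. For IGF2BP2, coding sequence held 13.2% of all peaks, 45.7% of those with at least 10 IP reads and 33.3% at a threshold of 4. Nearly all of the coding peaks with at least 10 IP reads were in MAP1B. Introns held 81.3% of all its peaks, 34.9% of those with at least 10 reads and 64.4% at a threshold of 2, and 3′ UTRs 4.55% of all and 7.80% at 2. Leaving out 1 library moved the enriched shares between 59.4% and 66.7% (coding, PTBP1), 31.9% and 39.1% (introns, PTBP1), 27.5% and 30.6% (coding, IGF2BP2), 47.2% and 60.0% (introns, IGF2BP2) and 12.5% and 19.4% (3′ UTRs, IGF2BP2).

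Density calls were less stable. Members called higher in PTBP1 were 1 as reported, 2 by nucleotides covered, 3 with a deposited −log10 p of at least 3, 4 with at least 10 IP reads and 5 with enriched peaks only. Those higher in IGF2BP2 were 2 as reported, 1 under median-of-ratios scaling, 1 without the filter on few peaks, 1 with at least 10 IP reads, and 0 with a −log10 p of at least 3 or enriched peaks only. Calls over all genes in these settings are given in the next paragraph. The members were picked with PTBP1 enrichment known, so nothing is read from their calls with enriched peaks. CLIP1, not called as reported, changed sign to 0.020 under median-of-ratios scaling and 0.048 without mirrored peaks, and ran from -0.148 to 0.051 without 1 library, lying above 0 without PTBP1 replicate 1 or IGF2BP2 replicate 1. With a −log10 p of at least 3, CLIP1 was at 1.90, MAP4 at 1.72 and MAP1B at 0.36 (median of all genes 0.28). With at least 10 IP reads CLIP1 was at 2.44 and MAP4 at 0.83, and with enriched peaks CLIP1 was at 2.65, MAP4 at 1.90 and MAP1B at 1.06. CLASP1 lost its call with a −log10 p of at least 3 (0.80) and with enriched peaks (1.47). The cause was not tested.

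Over all genes, 1165 and 1020 were called higher in PTBP1 and IGF2BP2 with a −log10 p of at least 3, and 497 and 478 with enriched peaks, where fewer genes were tested (4937 and 2520). With at least 10 IP reads 2763 and 1300 of 8077 genes were called, 68.0% of the calls towards PTBP1, against 50.8% as reported. By nucleotides covered the calls were 2795 and 2729 of 15145 genes, and under median-of-ratios scaling 2144 and 1580. Without the filter on few peaks 1504 and 1521 of 19767 genes were called. Leaving out 1 library gave 1114 to 3422 and 1153 to 2966 calls, fewest without PTBP1 replicate 1 and most without IGF2BP2 replicate 1, and 1 to 2 members called in each direction; the lone library was assumed to vary like the other protein's pair. The count of 2 members higher in PTBP1 arose without IGF2BP2 replicate 2, through CEP170 (0.68). Same-numbered libraries showed no shared deviation (correlation -0.0016 over 15145 genes, 2 pairs), so the numbers pair nothing; with the replicate block 2472 and 2291 genes were called, and the members' calls stayed 1 and 2.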
